A study of Mus musculus with 24 samples.

Results

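Lipid-associated macrophages are macrophages of obese fat that take up lipid and carry a shared set of surface, lysosomal and secreted products. The genes described here are 10 genes that mark them, namely Itgax, Itgad, Gpnmb, Trem2, Cd9, Spp1, Mmp12, Atp6v0d2, Ctsk and Msr1. They were chosen by name, with earlier results of these data known, and matched to the Ensembl identifiers of the deposited count table. All 10 were found among its 37991 identifiers, and all 10 passed the filter on low counts that left 20035 genes for testing.

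The RNA came from inguinal subcutaneous fat of 24 female mice at 26 weeks of age, with 1 library per mouse and 3 mice in each of 8 groups. The 4 inbred strains were NZO/HiLtJ, CAST/EiJ, WSB/EiJ and C57BL/6J, and each was fed a diet rich in fat (45% of energy) and sucrose (34% by weight), called high-fat here, or a standard diet in which fat gave 17% of the energy. Feeding began at 4 weeks of age. NZO/HiLtJ is a strain known for obesity, CAST/EiJ and WSB/EiJ are wild-derived strains, and C57BL/6J is the common laboratory strain. Mice of a group are called mouse 1, 2 and 3 in accession order, which pairs no mice between groups. Poly(A) RNA was sequenced, and totals ranged from 47651641 to 84009032 counts per library. Levels are counts relative to the TMM-scaled library total (normalised CPM). A gene was called where edgeR's quasi-likelihood test gave an adjusted p below 0.05 over all genes tested.

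Libraries differed in the other cell types they held. The fat-cell gene Adipoq had 4.09 normalised CPM in CAST/EiJ high-fat mouse 1, against 1590 and 2480 normalised CPM in the other CAST/EiJ high-fat mice and 599 to 2750 normalised CPM in the rest of the libraries. That library was thus low in the defining marker of the labelled tissue, and its summed level of 8 adipocyte markers was 192 normalised CPM, where the other 23 libraries had 7770 to 30100. Its level of Epcam, a surface protein of epithelial cells, was 151 normalised CPM. The WSB/EiJ high-fat mice had Epcam at 30.7, 51.7 and 11.6 normalised CPM, against 0.349, 0.258 and 6.06 in WSB/EiJ standard mice. In all, 6 libraries held Epcam at 5 CPM or more of the unscaled total. In the 6 NZO/HiLtJ libraries Epcam lay between 0.0268 and 0.371 normalised CPM. The results that these libraries moved most are given with and without them.

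In obese fat, macrophages gather around dying fat cells, take up lipid and break it down in lysosomes. TREM2 is a lipid-sensing receptor that signals through the adaptor TYROBP, and in mice it is needed for the lipid-associated state. GPNMB is a glycoprotein of late endosomes and lysosomes, MSR1 is a scavenger receptor for modified lipoproteins, and CD9 is a tetraspanin found on many cell types, epithelial cells included. Itgax and Itgad encode the CD11c and CD11d chains that pair with the beta-2 integrin chain. SPP1 (osteopontin) and MMP12 (macrophage elastase) are secreted. ATP6V0D2 is a subunit of the proton pump that acidifies lysosomes, and CTSK is a lysosomal protease best known from osteoclasts.

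The RefSeq promoter table, built on GRCm38.p6, held entries for 7 of the 10 genes, with 9 start sites among them. Entries run from 250 bases before a start to 50 after it. The 4 promoters below are shown because they belong to genes that were called in NZO/HiLtJ fat and because each holds the AP-1 motif TGANTCA, printed in capitals.

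Itgax, chr7:128129300-128129599, plus strand: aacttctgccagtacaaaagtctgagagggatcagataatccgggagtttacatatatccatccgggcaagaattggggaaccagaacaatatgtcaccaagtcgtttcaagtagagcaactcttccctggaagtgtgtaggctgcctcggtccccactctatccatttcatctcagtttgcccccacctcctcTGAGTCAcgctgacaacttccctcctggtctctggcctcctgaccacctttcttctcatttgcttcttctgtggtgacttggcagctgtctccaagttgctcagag

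Gpnmb, chr6:49036268-49036567, plus strand: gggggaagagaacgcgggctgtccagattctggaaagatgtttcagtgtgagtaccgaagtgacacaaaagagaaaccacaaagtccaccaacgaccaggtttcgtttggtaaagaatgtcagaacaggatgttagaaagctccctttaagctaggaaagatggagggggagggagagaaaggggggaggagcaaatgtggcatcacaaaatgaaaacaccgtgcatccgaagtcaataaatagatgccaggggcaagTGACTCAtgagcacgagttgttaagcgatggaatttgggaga

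Trem2, chr17:48346151-48346450, plus strand: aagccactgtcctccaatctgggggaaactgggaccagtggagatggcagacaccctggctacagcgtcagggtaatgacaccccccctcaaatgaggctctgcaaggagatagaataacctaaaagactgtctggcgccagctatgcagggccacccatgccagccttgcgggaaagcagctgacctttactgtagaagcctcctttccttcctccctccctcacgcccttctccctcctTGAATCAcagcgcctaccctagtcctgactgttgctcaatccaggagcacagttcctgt

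Mmp12, chr9:7347124-7347423, plus strand: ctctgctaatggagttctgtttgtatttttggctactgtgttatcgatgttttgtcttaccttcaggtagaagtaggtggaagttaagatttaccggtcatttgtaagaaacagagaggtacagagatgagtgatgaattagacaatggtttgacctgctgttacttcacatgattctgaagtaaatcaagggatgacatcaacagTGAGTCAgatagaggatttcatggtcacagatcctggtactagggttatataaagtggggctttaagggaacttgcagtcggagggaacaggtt

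The match began 56 bases upstream of the start in Itgax, 9 upstream in Trem2, 44 upstream in Mmp12 and 8 downstream in Gpnmb. TGANTCA, which reads alike on both strands, occurred in 7.81% of the 32851 promoter entries of the table. Searched on both strands, the E-box CACGTG was in 0 of the 7 genes with an entry and in 7.15% of all entries, and TCATGTG, a motif of the MiT factors, was in 1 of the 7 genes, Mmp12, and in 3.77% of all entries. GAGGAAG, a motif of the macrophage factor PU.1, was in 4 of the 7 genes (Ctsk, Mmp12, Spp1 and Trem2) and in 13.6% of all entries. A gene was counted if any of its start sites held the motif, whereas the shares are of single entries, so the measures differ. Spp1 and Mmp12 had more than 1 entry, and GAGGAAG was in only 1 entry of each. These matches describe letters within these windows, and no measurement of binding was made.

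On the high-fat diet, NZO/HiLtJ fat held higher levels of 7 of the 10 genes than on the standard diet, and none was called lower. The count was 4 without NZO/HiLtJ standard mouse 2, where 303 genes were called in all, and DESeq2 called 9 of the 10 and 1610 genes in all. Of all genes tested, 4.89% were called in this comparison and 2.95% were called higher. The median log2 fold change of the 10 genes was 2.73, beside -0.01 over all genes tested. In each of the 10 genes, all 3 high-fat libraries lay above all 3 standard libraries, as they did in 22.7% of all genes tested. Since the RNA is from whole tissue, more cells of a type and more RNA per cell cannot be told apart.

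**Figure D1:**
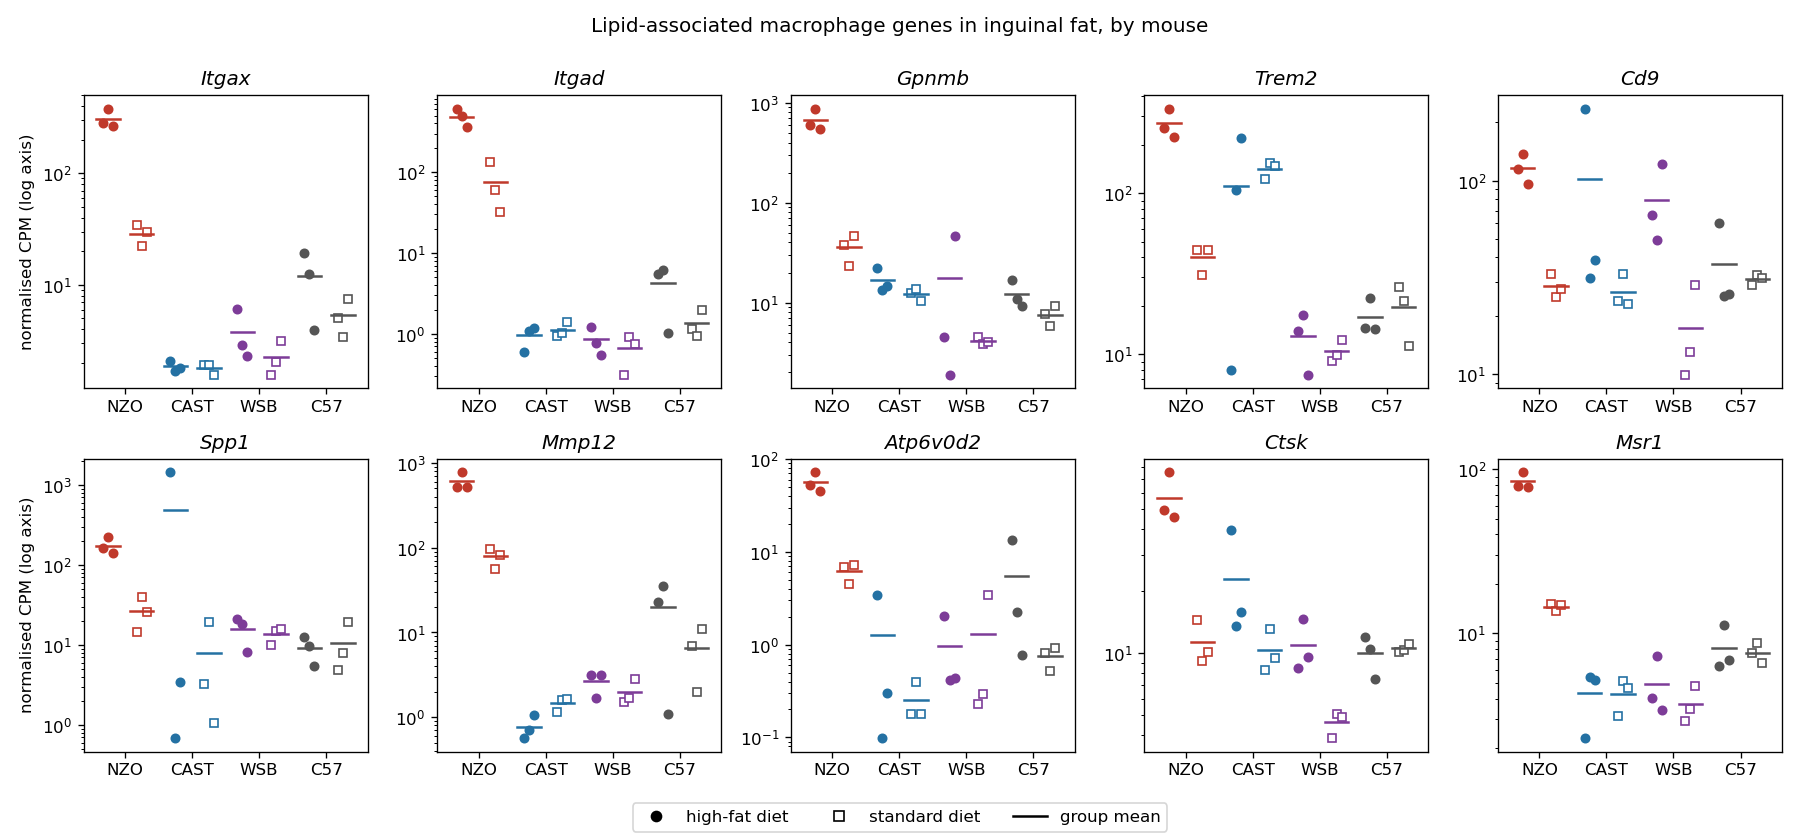
Normalised CPM (log axis) of the 10 genes in each mouse, by strain, with high-fat mice as filled circles to the left of standard mice as open squares and lines at group means. NZO/HiLtJ high-fat mice sit above NZO/HiLtJ standard mice in every panel, while Trem2 is also high in most CAST/EiJ mice and Spp1 and Cd9 are highest in CAST/EiJ high-fat mouse 1.

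Among the integrin genes, Itgax had 279, 380 and 265 normalised CPM in NZO/HiLtJ high-fat mice, against 34.2, 22.1 and 29.9 normalised CPM in NZO/HiLtJ standard mice. The groups lay far apart, and Itgax rose by a log2 fold change of 3.42 ± 0.47 (SE, edgeR adjusted p = 0.000312). Itgad had 611, 490 and 358 normalised CPM in NZO/HiLtJ high-fat mice, against 135, 59.6 and 31.9 normalised CPM in NZO/HiLtJ standard mice. Its standard mice spread widely, yet the lowest high-fat mouse was above the highest of them, with a log2 fold change of 2.69 ± 0.57 (edgeR adjusted p = 0.00999). Without NZO/HiLtJ standard mouse 2 the Itgad call was lost (edgeR adjusted p = 0.0759). Itgax, Itgad and Itgam are paralogs whose similar sequence may share reads, so the split of counts between them is uncertain.

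Gpnmb had the highest fold change of the 10 genes. It had 605, 877 and 542 normalised CPM in NZO/HiLtJ high-fat mice, against 38, 23 and 46.5 normalised CPM in NZO/HiLtJ standard mice. The ratio of the group means was 18.8, and the log2 fold change was 4.23 ± 0.78 (edgeR adjusted p = 0.00372). Msr1 had 79.1, 95.9 and 78 normalised CPM in NZO/HiLtJ high-fat mice, against 15.2, 13.7 and 14.8 normalised CPM in NZO/HiLtJ standard mice. The mice of each diet lay close together, and Msr1 rose by 2.53 ± 0.33 on the log2 scale (edgeR adjusted p = 0.000179). Trem2 had 255, 335 and 223 normalised CPM in NZO/HiLtJ high-fat mice, against 44.7, 30.9 and 44.6 normalised CPM in NZO/HiLtJ standard mice. Its log2 fold change was 2.76 ± 0.67 (edgeR adjusted p = 0.0215), and the call was lost on leaving out any NZO/HiLtJ mouse except high-fat mouse 3, with edgeR adjusted p-values of 0.0504 to 0.125.

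Cd9 had 115, 137 and 95.7 normalised CPM in NZO/HiLtJ high-fat mice, against 32.9, 25.1 and 27.5 normalised CPM in NZO/HiLtJ standard mice. The groups did not overlap, but the log2 fold change of 2.03 ± 0.61 did not pass (edgeR adjusted p = 0.0651). All libraries share an estimate of the spread, and Cd9 was at 236 normalised CPM in CAST/EiJ high-fat mouse 1, against 31.4 and 38.8 in the other mice of that group. Without that mouse the NZO/HiLtJ difference in Cd9 passed (edgeR adjusted p = 0.00306). It also passed without CAST/EiJ high-fat mouse 2 (edgeR adjusted p = 0.0338) or mouse 3 (edgeR adjusted p = 0.0436), and by DESeq2 on all libraries (DESeq2 adjusted p = 0.0079). A fit to the NZO/HiLtJ groups alone called Cd9 as well (edgeR adjusted p = 0.000722), and 5967 genes in all.

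The secreted proteins gave Mmp12 and Spp1. Mmp12 had 515, 778 and 525 normalised CPM in NZO/HiLtJ high-fat mice, against 97.5, 55.6 and 83 normalised CPM in NZO/HiLtJ standard mice. It rose by a log2 fold change of 2.95 ± 0.75 (edgeR adjusted p = 0.0296), a call that was lost on leaving out any 1 of the 6 NZO/HiLtJ mice (edgeR adjusted p of 0.0578 to 0.163). Spp1 had 161, 225 and 140 normalised CPM in NZO/HiLtJ high-fat mice, against 14.5, 40 and 26.1 normalised CPM in NZO/HiLtJ standard mice. The Spp1 groups were apart, but its log2 fold change of 2.70 ± 1.52 did not pass (edgeR adjusted p = 0.432). It passed without CAST/EiJ high-fat mouse 1 (edgeR adjusted p = 0.0341), in which Spp1 was at 1450 normalised CPM. Spp1 also passed in the fit to the NZO/HiLtJ groups alone (edgeR adjusted p = 0.00268), which called 5967 genes in all.

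Of the lysosomal genes, Ctsk had 49.5, 75.9 and 45.7 normalised CPM in NZO/HiLtJ high-fat mice, against 14.5, 9.17 and 10.2 normalised CPM in NZO/HiLtJ standard mice. It rose by a log2 fold change of 2.33 ± 0.35 (edgeR adjusted p = 0.000696). Atp6v0d2 had 52.7, 72.4 and 45.7 normalised CPM in NZO/HiLtJ high-fat mice, against 6.86, 4.45 and 7.15 normalised CPM in NZO/HiLtJ standard mice. The groups did not overlap, and the log2 fold change of 3.21 ± 1.18 did not pass (edgeR adjusted p = 0.153). By DESeq2 on all libraries Atp6v0d2 passed (DESeq2 adjusted p = 0.0305), as it did in the fit to the NZO/HiLtJ groups alone (edgeR adjusted p = 0.000722). Without CAST/EiJ high-fat mouse 1 Atp6v0d2 passed in edgeR (edgeR adjusted p = 0.0401), and all 10 genes were then called higher in NZO/HiLtJ fat. That fit called 2375 genes in all in this comparison, where the fit to all libraries called 979.

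Per kilobase of exon, taken from the GENCODE annotation, the level in NZO/HiLtJ high-fat fat was highest for Itgad, with 108 CPM per kilobase, followed by Spp1 with 106 and Gpnmb with 104. Msr1, with 13.3 CPM per kilobase, and Atp6v0d2, with 20.9, were the lowest of the 10. On the standard diet Itgad and Spp1 also led, with 16.8 and 16.3 CPM per kilobase, and Gpnmb had 5.51. The length used was the union of all annotated exons of a gene, from 1512 bases for Ctsk to 7237 for Mmp12. Where the transcripts present are shorter than that union, the level per kilobase is too low, so the order between genes is uncertain. The top values in high-fat mice were also close, as Itgad had an SD of 126 normalised CPM around a mean of 487.

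**Figure D2:**
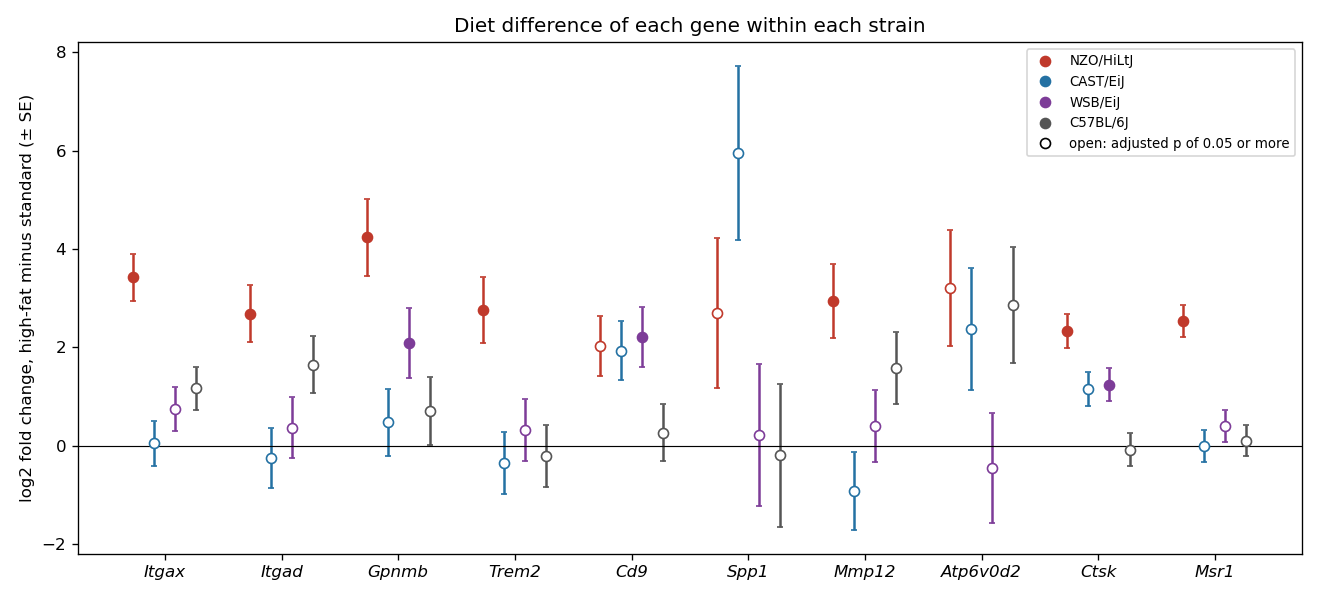
Log2 fold change of each gene, high-fat minus standard diet, with its standard error, in NZO/HiLtJ, CAST/EiJ, WSB/EiJ and C57BL/6J fat; filled points had an edgeR adjusted p below 0.05. The NZO/HiLtJ points lie between 2.03 and 4.23, and the widest error belongs to Spp1.

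In CAST/EiJ fat edgeR called 0 of the 10, where 4.87% of all genes tested were called. At an unadjusted p below 0.05 the count was 3, where 28.8% of all genes were below it, and DESeq2 called 3 of the 10 and 2872 genes in all. In edgeR 3 passed without high-fat mouse 2 or without high-fat mouse 3, 1, Ctsk, without WSB/EiJ high-fat mouse 2, and 0 without high-fat mouse 1. Spp1 had 1450, 0.685 and 3.45 normalised CPM in CAST/EiJ high-fat mice, against 3.3, 19.2 and 1.06 normalised CPM in CAST/EiJ standard mice. The whole difference lay in mouse 1, the library low in Adipoq: the log2 fold change was 5.95 ± 1.78 with it (edgeR adjusted p = 0.0556) and -1.95 without it. Mmp12 had 0.566, 0.705 and 1.06 normalised CPM in CAST/EiJ high-fat mice, against 1.14, 1.59 and 1.64 normalised CPM in CAST/EiJ standard mice. These groups did not overlap, with the high-fat mice lower (as in 9.6% of all genes tested), but the difference did not pass (log2 fold change -0.93 ± 0.80 SE, edgeR adjusted p = 0.443). Ctsk had 39.6, 13.6 and 15.8 normalised CPM in CAST/EiJ high-fat mice, against 8.34, 13.2 and 9.5 normalised CPM in CAST/EiJ standard mice, and its adjusted p was 0.0538 in edgeR. All high-fat mice were above all standard mice in Ctsk, by 13.6 against 13.2 at the closest. Leaving out mouse 1 changed the log2 fold change of Ctsk to 0.50 (edgeR adjusted p = 0.46) and that of Cd9 to 0.39, where it was 1.94 with all mice.

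In WSB/EiJ fat 3 of the 10 genes were called, all higher, in a comparison that called 21.5% of all genes tested and called 12.9% of all genes tested higher on the high-fat diet. Cd9 had 66.7, 49.5 and 122 normalised CPM in WSB/EiJ high-fat mice, against 9.91, 12.9 and 28.7 normalised CPM in WSB/EiJ standard mice, a log2 fold change of 2.21 ± 0.61 (edgeR adjusted p = 0.0189). Ctsk had 8.52, 14.7 and 9.63 normalised CPM in WSB/EiJ high-fat mice, against 3.87, 5.08 and 4.91 normalised CPM in WSB/EiJ standard mice, a log2 fold change of 1.24 ± 0.34 (edgeR adjusted p = 0.0187). Both genes were apart between diets, as were 18.4% of all genes tested with the high-fat mice higher, and both calls were lost without standard mouse 1 (edgeR adjusted p of 0.0961 for Cd9 and 0.0904 for Ctsk) or standard mouse 2 (edgeR adjusted p of 0.0796 for Cd9 and 0.0547 for Ctsk). The Cd9 call was also lost without high-fat mouse 3, and the Ctsk call without high-fat mouse 2 (edgeR adjusted p of 0.0562 for Cd9 and 0.103 for Ctsk).

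Gpnmb had 4.51, 1.9 and 46.1 normalised CPM in WSB/EiJ high-fat mice, against 4.5, 3.84 and 4.04 normalised CPM in WSB/EiJ standard mice. The call, a log2 fold change of 2.08 ± 0.72 (edgeR adjusted p = 0.0459), rested on high-fat mouse 3, and without it the value was -0.37. It was lost in 21 of the 30 alternatives tried, the fit with no filter on low counts among them (edgeR adjusted p = 0.0563). The summed epithelial markers were 158, 223 and 720 normalised CPM in WSB/EiJ high-fat mice, against 6, 5.27 and 31.1 normalised CPM in WSB/EiJ standard mice. The part of epithelial cells in the Cd9, Ctsk and Gpnmb values was not tested. The 15 pan-macrophage markers summed to 600, 480 and 509 normalised CPM in WSB/EiJ high-fat mice, against 563, 637 and 601 normalised CPM in WSB/EiJ standard mice.

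In C57BL/6J fat edgeR called 0 of the 10 genes, in a comparison that called 0.00998% of all genes tested. At an unadjusted p below 0.05 the count was 4 (Itgax, Itgad, Mmp12 and Atp6v0d2), where 3.66% of all genes were below it, and DESeq2 called 0 of the 10 and 34 genes in all. Mmp12 had 22.6, 35.7 and 1.08 normalised CPM in C57BL/6J high-fat mice, against 6.9, 1.99 and 11 normalised CPM in C57BL/6J standard mice. Itgad had 5.47, 6.19 and 1.02 normalised CPM in C57BL/6J high-fat mice, against 1.15, 0.949 and 1.96 normalised CPM in C57BL/6J standard mice. In both genes, and in Itgax at 19.2, 12.6 and 3.94 normalised CPM in the high-fat mice, against 5.07, 3.43 and 7.47 in the standard mice, high-fat mice 1 and 2 were above the standard mice and mouse 3 was not. The same held for Atp6v0d2, at 13.3, 2.26 and 0.767 normalised CPM in C57BL/6J high-fat mice, against 0.809, 0.514 and 0.929 in C57BL/6J standard mice. Gpnmb was the 1 gene in which all C57BL/6J high-fat mice were above all standard mice. It had 16.7, 10.9 and 9.25 normalised CPM in the high-fat mice, against 7.71, 5.81 and 9.19 in the standard mice. Its log2 fold change was 0.70 ± 0.69, and it was not called. C57BL/6J high-fat mouse 1 was among the libraries rich in Epcam, at 11.5 CPM of the unscaled total. The part of epithelial cells in these values was not tested.

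The diet difference itself was compared between strains. The strain by diet interaction passed for Msr1 (edgeR adjusted p = 0.0127), Itgax (edgeR adjusted p = 0.0282) and Ctsk (edgeR adjusted p = 0.0442), which is 3 of the 10, where 3.08% of all genes tested passed. The diet difference in NZO/HiLtJ fat exceeded the mean of the other 3 strains in Itgax, by 2.77 ± 0.52 on the log2 scale (edgeR adjusted p = 0.00889), and in Msr1, by 2.37 ± 0.37 (edgeR adjusted p = 0.0022), and 1.66% of all genes tested passed. The comparison of NZO/HiLtJ with the other strains was chosen with earlier results of these data known. For the other 8 genes a larger change in NZO/HiLtJ fat is not shown: the differences ran from 0.56 ± 0.67 for Cd9 to 3.15 ± 0.82 for Gpnmb (edgeR adjusted p = 0.0608). Without CAST/EiJ high-fat mouse 1, 6 genes passed each of these tests, and without WSB/EiJ high-fat mouse 2, 4 passed the comparison with the other strains. Without NZO/HiLtJ standard mouse 2 the interaction was passed by 0 genes (Msr1 then had an edgeR adjusted p of 0.057) and the comparison with the other strains by 1, Msr1. Only 1 gene passed the interaction without NZO/HiLtJ standard mouse 1 or 3, NZO/HiLtJ high-fat mouse 1 or 2, or WSB/EiJ standard mouse 2. The counts over all genes moved too. Over the alternatives tried the interaction was passed by 129 to 3588 genes (618 in the main fit). The comparison with the other strains was passed by 90 to 1056 (333 in the main fit). The Ctsk interaction was lost in 19 of the alternatives tried, with edgeR adjusted p-values of up to 0.108.

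The order of levels over the 8 groups set NZO/HiLtJ high-fat fat at the top in 9 of the 10 genes. In 8 genes every NZO/HiLtJ high-fat library was above all 18 libraries of the other strains, and Cd9 and Spp1 were the exceptions. Of all genes tested 7.19% had such an order. In 4 genes (Itgax, Itgad, Mmp12 and Msr1) every NZO/HiLtJ standard library was above those 18 as well, which held for 4.16% of all genes tested. For Itgad the lowest NZO/HiLtJ standard mouse had 31.9 normalised CPM, and the other strains ran from 0.314 to 6.19. For Itgax the same values were 22.1 normalised CPM, and 1.57 to 19.2 in the other strains. Below NZO/HiLtJ, C57BL/6J high-fat and then C57BL/6J standard fat came next in Itgax, Itgad, Mmp12 and Msr1, and the ranges of these neighbours overlapped in each of the 4 genes. In Cd9 every pair of neighbouring groups overlapped, from 116 ± 20.9 normalised CPM in NZO/HiLtJ high-fat mice to 17.2 ± 10.1 in WSB/EiJ standard mice (SD, n = 3 each).

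On the high-fat diet the 4 strains differed in 9 of the 10 genes, beside 56% of all genes tested, and Cd9 did not pass (edgeR adjusted p = 0.108, and 0.0025 without CAST/EiJ high-fat mouse 1). NZO/HiLtJ was called higher in 7 genes against CAST/EiJ (39.8% of all genes called), in 8 against WSB/EiJ (36.6%) and in 7 against C57BL/6J (14.9%), with median log2 fold changes of 4.81, 4.82 and 4.12. All shares given for pairs of strains count calls in either direction. Of the 20035 genes tested, 3786 were called higher in NZO/HiLtJ against CAST/EiJ, 3346 against WSB/EiJ and 1587 against C57BL/6J. Itgad differed by 9.01 ± 0.77 on the log2 scale between NZO/HiLtJ and CAST/EiJ (edgeR adjusted p = 5.43e-08), and Mmp12 by 9.62 ± 1.03 (edgeR adjusted p = 8.65e-07). Between the same strains Spp1 had a log2 fold change of -1.47 ± 1.46 (edgeR adjusted p = 0.447), which turned to 6.42 without CAST/EiJ high-fat mouse 1 (edgeR adjusted p = 0.00024). CAST/EiJ was higher than WSB/EiJ in 3 genes, Trem2, Spp1 and Ctsk (26.7% of all genes called). Against C57BL/6J, CAST/EiJ was higher in Trem2, Spp1 and Ctsk and lower in Itgax, Itgad, Mmp12 and Msr1 (25.9%). Without CAST/EiJ high-fat mouse 1 Trem2 stayed higher in CAST/EiJ, by 3.64 against WSB/EiJ (edgeR adjusted p = 9.97e-07) and by 3.26 against C57BL/6J (edgeR adjusted p = 3.51e-06). Spp1 then turned lower in CAST/EiJ than in WSB/EiJ, with a log2 fold change of -2.95 (edgeR adjusted p = 0.0236), with -2.17 against C57BL/6J (edgeR adjusted p = 0.0991), and Ctsk no longer passed (edgeR adjusted p of 0.216 against WSB/EiJ and 0.13 against C57BL/6J). The Msr1 difference from C57BL/6J, with an edgeR adjusted p of 0.0396 with all mice, was lost as well (0.132), while Cd9 became lower in CAST/EiJ than in WSB/EiJ (edgeR adjusted p = 0.0395) and Atp6v0d2 lower than in C57BL/6J (edgeR adjusted p = 0.0137).

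WSB/EiJ high-fat mice were lower than C57BL/6J high-fat mice in Itgax, Itgad and Mmp12 (17.9% of all genes called). The count of genes called in either direction was 5 without CAST/EiJ high-fat mouse 1, 1 without WSB/EiJ high-fat mouse 2 and 0 without C57BL/6J high-fat mouse 2. Among those 5, Cd9 was higher in WSB/EiJ (log2 fold change 1.10, edgeR adjusted p = 0.0379) and the rest were lower. Between CAST/EiJ and C57BL/6J 4 genes were called without C57BL/6J high-fat mouse 2. Between CAST/EiJ and WSB/EiJ 5 were called without C57BL/6J high-fat mouse 3 and 1 without WSB/EiJ high-fat mouse 1.

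On the standard diet the strains differed in 8 of the 10 genes, beside 49.6% of all genes tested. Spp1 and Cd9 did not pass (edgeR adjusted p of 0.698 for Spp1 and 0.6 for Cd9). NZO/HiLtJ was higher in 5 genes and lower in 1, Trem2, against CAST/EiJ (35.1% of all genes called), higher in 7 against WSB/EiJ (28.1%) and higher in 3, Itgad, Itgax and Mmp12, against C57BL/6J (8.36%). In the last of these, Itgad had a log2 fold change of 5.81 ± 0.67 (edgeR adjusted p = 1.99e-05). CAST/EiJ was higher than WSB/EiJ in Trem2 and Ctsk (23.5%). Against C57BL/6J, CAST/EiJ was higher in Trem2 and lower in Itgax and Mmp12 (28%), and WSB/EiJ was lower in Ctsk and Msr1 (22%). These shares count calls in either direction. Of the 20035 genes tested, 3783 were called higher in NZO/HiLtJ against CAST/EiJ, 3144 against WSB/EiJ and 858 against C57BL/6J. Without CAST/EiJ high-fat mouse 1, NZO/HiLtJ differed from C57BL/6J in 7 genes and WSB/EiJ from C57BL/6J in 4, and without WSB/EiJ high-fat mouse 2 the NZO/HiLtJ count was 5. The WSB/EiJ count against C57BL/6J was 0 without WSB/EiJ standard mouse 1, 4 without C57BL/6J high-fat mouse 3, and 1 without WSB/EiJ standard mouse 2 or C57BL/6J standard mouse 1 or 3. The CAST/EiJ count fell to 1 against WSB/EiJ without CAST/EiJ standard mouse 2 or WSB/EiJ standard mouse 1, and to 1 against C57BL/6J without standard mouse 3 of either strain. Whether reads were aligned to a genome of each strain is not given in the sources used here, and its part in level differences between strains was not tested.

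Trem2 was high in CAST/EiJ fat. It had 123, 153 and 147 normalised CPM in CAST/EiJ standard mice, against 26.3, 21.5 and 11.3 normalised CPM in C57BL/6J standard mice, and the log2 fold change was 2.84 ± 0.67 (edgeR adjusted p = 0.00381). Against WSB/EiJ standard mice, at 9.09, 9.93 and 12.3 normalised CPM, the CAST/EiJ difference was 3.76 ± 0.70 (edgeR adjusted p = 0.000588). NZO/HiLtJ standard mice were lower than CAST/EiJ standard mice in Trem2, with a log2 fold change of -1.82 ± 0.65 (edgeR adjusted p = 0.0356), a call that was lost on leaving out any 1 of those 6 mice (edgeR adjusted p of 0.0565 to 0.114). In the same CAST/EiJ standard mice Itgax was at 1.92, 1.92 and 1.57 normalised CPM, the lowest group mean of the 8.

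The adaptor gene Tyrobp was at 22.1, 15.6 and 18.4 normalised CPM in NZO/HiLtJ standard mice, against 6.78, 7.97 and 6.59 normalised CPM in CAST/EiJ standard mice, an order opposite to that of Trem2. The F4/80 gene Adgre1 was at 107, 66.3 and 88.8 normalised CPM in NZO/HiLtJ standard mice, against 21.8, 27.7 and 23.3 normalised CPM in CAST/EiJ standard mice. Among the CAST/EiJ high-fat mice Trem2 was at 8.01, 105 and 219 normalised CPM, beside summed adipocyte markers of 192, 20300 and 21900 and Adgre1 at 22.1, 36.9 and 36 normalised CPM. Mouse 1 was the lowest of the group in all of these, by the widest margin in the adipocyte markers, and the part of fat cells in the Trem2 level was not tested. The diet difference of Trem2 in CAST/EiJ fat was -0.35 ± 0.63 on the log2 scale (edgeR adjusted p = 0.734), and 0.19 without mouse 1.

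**Figure D3:**
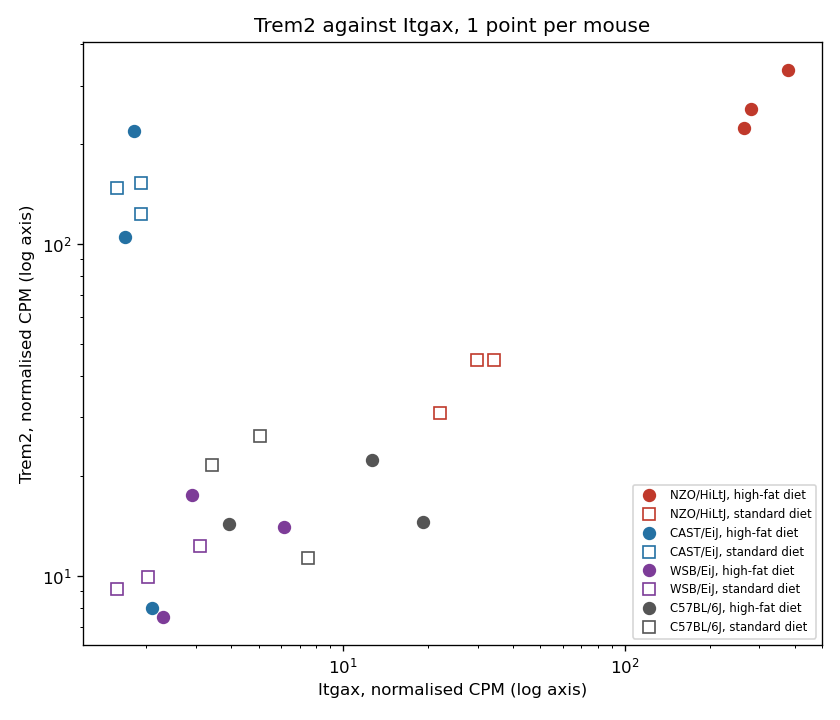
Trem2 against Itgax, both in normalised CPM on log axes, with 1 point per mouse, colours for strains, filled circles for the high-fat diet and open squares for the standard diet. NZO/HiLtJ high-fat mice are high in both genes, while 5 of the 6 CAST/EiJ mice are at 105 to 219 in Trem2 with Itgax below 2.

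Over the 24 libraries, which share their tissue and fall apart by the NZO/HiLtJ high-fat group, each gene was set against the mean of the other 9 on a log2 scale. Pearson's r was highest for Itgax (0.93), Gpnmb (0.91) and Itgad (0.90), and lowest for Spp1 (0.60), Cd9 (0.57) and Trem2 (0.47). Among the 18 libraries of the other strains Itgax and Mmp12 had an r of 0.88 and Itgax and Itgad 0.80, and Itgax also had 0.77 with Atp6v0d2 and 0.59 with Msr1. With the other 5 genes the r of Itgax was 0.14 for Cd9 and for Spp1, 0.04 for Ctsk, 0 for Gpnmb and -0.37 for Trem2. These values describe the libraries and carry no test.

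The 10 genes were next set beside markers of macrophages in general. Of 15 pan-macrophage markers 10 rose in NZO/HiLtJ fat on the high-fat diet and none fell, with a median log2 fold change of 1.31. Cd68, a lysosomal protein of macrophages, had 267, 344 and 233 normalised CPM in NZO/HiLtJ high-fat mice, against 79.8, 65.8 and 82.5 normalised CPM in NZO/HiLtJ standard mice (log2 fold change 1.89 ± 0.17, edgeR adjusted p = 6.69e-06). Adgre1 rose by 2.02 ± 0.23 (edgeR adjusted p = 5.32e-05), and Laptm5 by 1.31 ± 0.16 (edgeR adjusted p = 0.000121). Csf1r, the receptor for the macrophage growth factor CSF1, was at 422, 549 and 445 normalised CPM in NZO/HiLtJ high-fat mice, against 373, 252 and 320 normalised CPM in NZO/HiLtJ standard mice, and it was not among the genes called.

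Relative to the geometric mean of the 15 markers, all 10 genes were higher in NZO/HiLtJ high-fat mice, with no overlap between the diets, and 1.51% of all genes tested lay so. Gpnmb stood at 2.30, 2.49 and 2.18 on the log2 scale in NZO/HiLtJ high-fat mice, against -0.74, -1 and -0.32 in NZO/HiLtJ standard mice, a difference of means of 3.01. The difference was 2.18 for Itgax, 1.96 for Atp6v0d2, 1.71 for Mmp12 and 1.65 for Itgad. It was smallest for Cd9 at 0.77 and Ctsk at 1.08. The same 10 were apart when only Adgre1 and Csf1r served as the denominator, beside 1.33% of all genes tested. In WSB/EiJ fat 2 genes, Cd9 and Ctsk, were higher relative to the markers with no overlap (21.8% of all genes tested). In C57BL/6J 0 were (1.86%), and in CAST/EiJ Mmp12 was lower with no overlap (25%). These ratios are a description and were not tested.

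**Figure D4:**
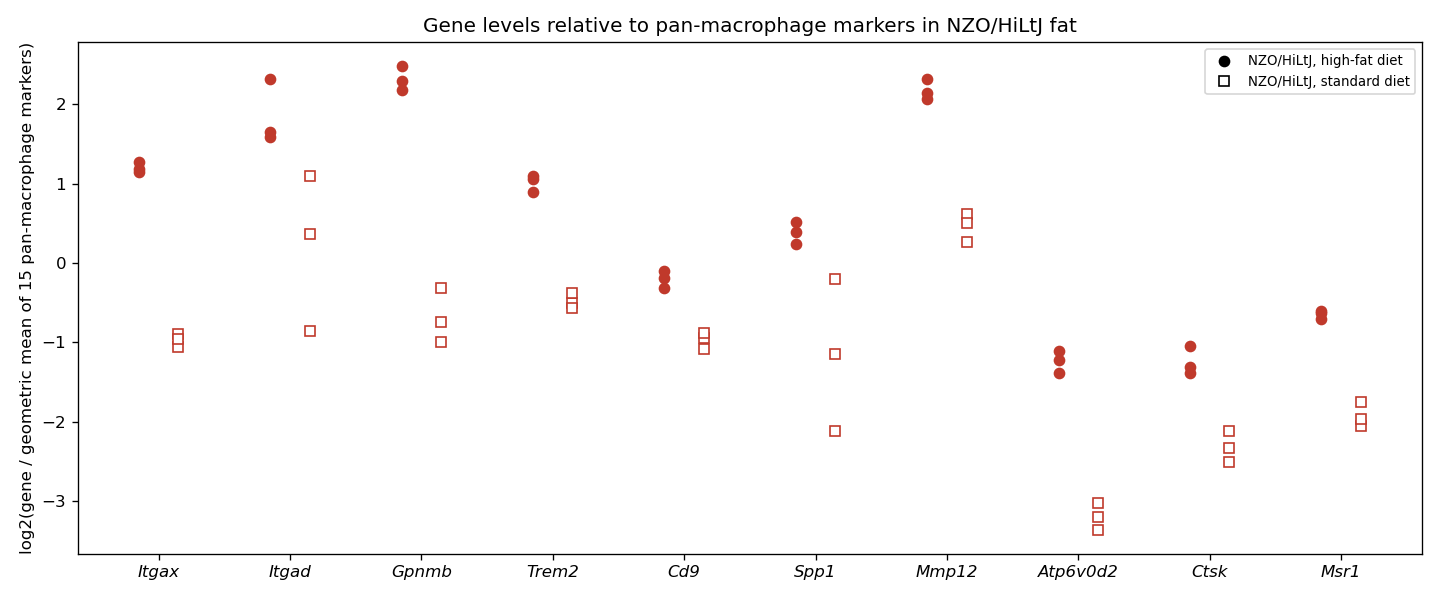
Log2 ratio of each gene to the geometric mean of 15 pan-macrophage markers in the 6 NZO/HiLtJ mice, with high-fat mice as filled circles to the left of standard mice as open squares. In all 10 genes the circles lie above the squares, from a difference of means of 0.77 for Cd9 to 3.01 for Gpnmb.

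Markers of tissue-resident macrophages went the other way. Of 10 such genes 3 fell in NZO/HiLtJ fat and none rose, with a median log2 fold change of -1.59. Cd209f, a C-type lectin, had 11, 8.19 and 6.85 normalised CPM in NZO/HiLtJ high-fat mice, against 139, 111 and 118 normalised CPM in NZO/HiLtJ standard mice (log2 fold change -3.82 ± 0.73, edgeR adjusted p = 0.00498). Its relative Cd209g had 2.62, 1.74 and 1.65 normalised CPM in NZO/HiLtJ high-fat mice, against 32.7, 26.7 and 26.7 normalised CPM in NZO/HiLtJ standard mice (log2 fold change -3.84 ± 0.67, edgeR adjusted p = 0.00251). The Cd209 genes are close relatives whose reads may be shared. Cbr2, a carbonyl reductase, fell by 1.51 on the log2 scale (edgeR adjusted p = 0.0341). DESeq2 called 5 of the 10, and edgeR called 7, all lower, without CAST/EiJ high-fat mouse 1, where 2375 genes were called in all. The sum of the 10 was 324, 361 and 305 normalised CPM in NZO/HiLtJ high-fat mice, against 725, 588 and 620 normalised CPM in NZO/HiLtJ standard mice.

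Genes that process the lipid and debris that macrophages take up were a mixed group. Of 15 lipid handling genes 5 rose in NZO/HiLtJ fat and none fell, and the median log2 fold change was 0.31. Lipa, the lysosomal acid lipase, had 153, 197 and 137 normalised CPM in NZO/HiLtJ high-fat mice, against 53.1, 49.1 and 58.9 normalised CPM in NZO/HiLtJ standard mice (log2 fold change 1.60 ± 0.18, edgeR adjusted p = 5.13e-05). Soat1, which esterifies cholesterol, rose by 1.95 ± 0.31 (edgeR adjusted p = 0.00104), and Nceh1, which hydrolyses cholesteryl esters, by 2.03 ± 0.46 (edgeR adjusted p = 0.014). Pla2g7, a lipoprotein-associated phospholipase, rose by 1.58 ± 0.30 (edgeR adjusted p = 0.00511).

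Of 20 lysosome and phagosome genes 8 rose and none fell, with a median of 0.56. The protease Lgmn rose by 1.33 ± 0.17 (edgeR adjusted p = 0.000137), and Ctss, which is also one of the pan-macrophage markers, as Cd68 is, by 1.84 ± 0.33 (edgeR adjusted p = 0.00354).

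Of the osteoclast genes, to which Ctsk and Atp6v0d2 are related by function, 13 were tested, and 2 rose and 2 fell. Tnfrsf11a, the receptor for RANKL, rose by 1.75 ± 0.38 (edgeR adjusted p = 0.0109), and Tcirg1, a proton pump subunit, by 1.37 ± 0.30 (edgeR adjusted p = 0.0124). Acp5, an acid phosphatase of osteoclasts, had 225, 199 and 226 normalised CPM in NZO/HiLtJ high-fat mice, against 448, 492 and 481 normalised CPM in NZO/HiLtJ standard mice (log2 fold change -1.13 ± 0.24, edgeR adjusted p = 0.00999). Mmp9, a gelatinase, had 1.61, 1.7 and 2.42 normalised CPM in NZO/HiLtJ high-fat mice, against 10.4, 6.75 and 9.4 normalised CPM in NZO/HiLtJ standard mice (log2 fold change -2.21 ± 0.55, edgeR adjusted p = 0.0239). The osteoclast genes that passed were thus split in direction, and the list median was 0.15.

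Of 9 tested genes of TREM2 signalling 3 rose, the adaptor Tyrobp by 1.72 ± 0.20 (edgeR adjusted p = 5.13e-05), the exchange factor Vav1 by 1.46 ± 0.26 (edgeR adjusted p = 0.00265) and the kinase Syk by 1.08 ± 0.23 (edgeR adjusted p = 0.011). Tyrobp is also counted among the pan-macrophage markers. Of 9 genes for beta-2 integrins and osteopontin receptors 4 rose. Itgb2, the chain that pairs with CD11c and CD11d, rose by 1.62 ± 0.33 (edgeR adjusted p = 0.00657), and Itgam, the CD11b chain, by 1.36 ± 0.27 (edgeR adjusted p = 0.00581). The osteopontin receptors Cd44 and Itga4 rose by 1.26 ± 0.29 (edgeR adjusted p = 0.0164) for Cd44 and 1.00 ± 0.16 (edgeR adjusted p = 0.00109) for Itga4. Of 9 genes of the MiT transcription factors, which drive lysosomal genes, and their regulators, 1 rose, the folliculin partner Fnip2, by 1.05 ± 0.12 (edgeR adjusted p = 7.12e-05). Mitf had a log2 fold change of 1.19 ± 0.36 (edgeR adjusted p = 0.0675). In edgeR 5 of the TREM2 signalling genes and 5 of the MiT genes were called, all higher, without CAST/EiJ high-fat mouse 1, where 2375 genes were called in all.

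**Figure D5:**
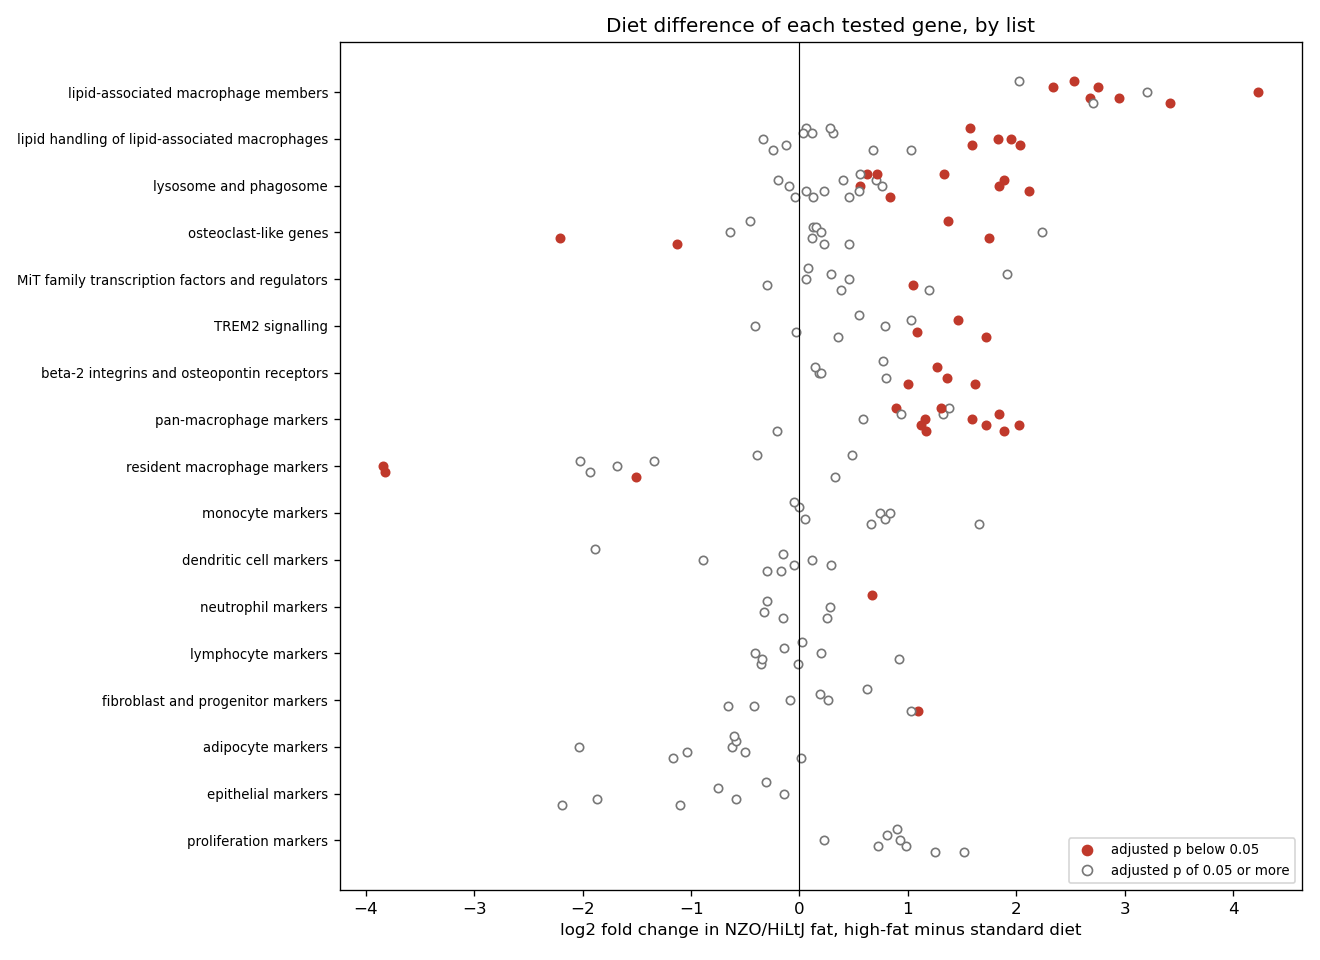
Log2 fold change in NZO/HiLtJ fat, high-fat minus standard diet, of each tested gene of 17 lists, with 1 row per list; red points had an edgeR adjusted p below 0.05. All 7 called genes of the top row are to the right of 0, with the 10 called pan-macrophage markers also to the right and the 3 called resident macrophage markers to the left.

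Markers of other cells were read in the same NZO/HiLtJ comparison. By edgeR 0 of 8 monocyte, 0 of 8 dendritic cell, 0 of 8 lymphocyte and 0 of 8 proliferation markers were called, with 2, 1, 0 and 2 at an unadjusted p below 0.05, where 15.7% of all genes were below it. DESeq2 called 1 of these, a dendritic cell marker. The summed levels of 3 of the lists were apart between the diets all the same. Monocyte markers summed to 180 to 216 normalised CPM in NZO/HiLtJ high-fat mice and 102 to 158 in NZO/HiLtJ standard mice, proliferation markers to 66.2 to 90.6 in high-fat mice and 36.9 to 51.9 in standard mice, and dendritic cell markers to 29.7 to 34.3 in high-fat mice and 39 to 47.6 in standard mice. The part of these cells in the levels of the 10 genes was not tested. Ccr2, the chemokine receptor of recruited monocytes, averaged 122 normalised CPM in NZO/HiLtJ high-fat mice and 77 in NZO/HiLtJ standard mice (log2 fold change 0.66 ± 0.31, edgeR adjusted p = 0.315), and Plac8 averaged 30.5 in NZO/HiLtJ high-fat mice and 18.3 in NZO/HiLtJ standard mice (edgeR adjusted p = 0.861). The dendritic cell factor Zbtb46 had a log2 fold change of -0.17 ± 0.29 (edgeR adjusted p = 0.854) and Siglech, of plasmacytoid dendritic cells, -0.89 ± 0.50 (edgeR adjusted p = 0.432). Cd79b, of B cells, had -0.14 ± 0.62 and Ncr1, of natural killer cells, 0.20 ± 0.70. The proliferation marker Mki67 averaged 19.8 normalised CPM in NZO/HiLtJ high-fat mice and 8.34 in NZO/HiLtJ standard mice (log2 fold change 1.25 ± 0.50, edgeR adjusted p = 0.201), and Top2a had 0.98 ± 0.58 (edgeR adjusted p = 0.459). The neutrophil list gave 1 of 6, Csf3r, which rose by 0.67 ± 0.17 (edgeR adjusted p = 0.0281), and the fibroblast list 1 of 8, Pdgfra, which rose by 1.09 ± 0.30 (edgeR adjusted p = 0.0444). The fibroblast count was 2 and the dendritic cell count 1 without CAST/EiJ high-fat mouse 1. Of 8 adipocyte markers 0 were called by edgeR or DESeq2, and 0 had an unadjusted p below 0.05. Their sum was 11000, 9710 and 11700 normalised CPM in NZO/HiLtJ high-fat mice, against 16400, 17400 and 17200 normalised CPM in NZO/HiLtJ standard mice, with no overlap. Cidec, a lipid droplet protein, averaged 3800 normalised CPM in NZO/HiLtJ high-fat mice and 5830 in NZO/HiLtJ standard mice, and the lipase gene Pnpla2 averaged 2810 in high-fat mice and 4250 in standard mice. Without CAST/EiJ high-fat mouse 1, 4 of the 8 were called lower, where 2375 genes were called in all. Of 7 epithelial markers 0 were called by edgeR or DESeq2, and 0 had an unadjusted p below 0.05. Krt8, the keratin gene with the highest level in the list, averaged 1.27 normalised CPM in NZO/HiLtJ high-fat mice and 1.92 in NZO/HiLtJ standard mice, and Cdh1 averaged 0.393 in high-fat mice and 0.84 in standard mice. The part of a lower share of fat-cell RNA in the levels of the 10 genes was not tested, and the ratios to macrophage markers given above are a description.

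Outside the set, the gene whose log2 level over the 24 libraries was most like the mean of the 10 was Adam8, a membrane protease of myeloid cells, with a Pearson r of 0.972. It had a mean of 359 ± 68.2 normalised CPM in NZO/HiLtJ high-fat mice, against 45.5 ± 8.81 in NZO/HiLtJ standard mice (SD, n = 3 each). The next were Dnmt3a, Arl11, Gnb4, Cstb, Bcl2a1b, Vav1, Slc15a3, Cd84 and Tm4sf19, with r between 0.948 and 0.959. Among the 18 libraries outside NZO/HiLtJ the same 10 genes had an r of 0.59 (Slc15a3) to 0.83 (Gnb4). Since they were picked for this likeness, their diet differences are a description. They ran from 0.76 ± 0.16 for Gnb4 and 0.91 ± 0.16 for Dnmt3a, a DNA methyltransferase, to 3.16 ± 0.64 for Tm4sf19 on the log2 scale in NZO/HiLtJ fat. Bcl2a1b has near-identical copies, so its counts are uncertain.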

How the data were processed

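The members, all gene lists and the comparison of the NZO/HiLtJ diet difference with the other strains were chosen with earlier results of these data known. The authors deposited gene-level expected counts, which are whole numbers in the file; the submitters' processing notes name RSEM 1.2.1, Bowtie 0.12.8 and CASAVA 1.8.0, with builds NCBIM37 and mm9, without their roles. The other table deposited by the authors holds an upper-quartile signal, in which each value is the count over the 75th percentile of that library's counts above 0, to within 5e-04; it served as an alternative for levels. All 24 samples had a column in both tables, and 0 columns were left over. Of 37991 identifiers 32919 (86.6%) had a symbol.

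Tests used edgeR 4.0.16 under R 4.3.3: filterByExpr by group left 20035 genes, libraries were scaled by TMM (factors 0.823 to 1.161), and the model held 1 coefficient per group over the 24 libraries (16 residual degrees of freedom). The biological coefficient of variation was 40.1%. Quasi-likelihood F tests, 2-sided, were adjusted by Benjamini-Hochberg over all genes tested. The standard error is the log2 fold change divided by the root of F. Mice of a group differed beyond counting error (chi-square over degrees of freedom, 22.1 to 1490), so none were merged; the labels state 1 mouse per library. Levels between genes were compared per kilobase of union exon. Correlations used log2 normalised CPM with 0.5 added to each count. DESeq2 1.42.0, other scalings, no low-count filter, a fit to the compared groups alone, and fits without the libraries rich in Epcam or without each mouse were tried.

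Genes named besides the members were, of each list, up to 4 per direction with the smallest adjusted p for the diet in NZO/HiLtJ (where none passed, the 2 with the highest mean level), defining markers of other cell types, and the 10 genes most like the mean of the members. Of these, 1 gene is not reported here. Calcr, Tm7sf4, Trem3, Ly6g and Krt5 were not among the genes tested. The code was tested on simulated data.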

Additional observations from a re-analysis of the deposited data

Results flagged for a closer look

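The diet difference of 3 genes differed between the 4 strains in edgeR's test of the strain by diet interaction. The adjusted p was 0.0127 for Msr1, 0.0282 for Itgax and 0.0442 for Ctsk. Of the 29 alternatives tried for each, 1 ended the call for Msr1, 6 for Itgax and 19 for Ctsk. The diet difference in NZO/HiLtJ fat also exceeded the mean of the other 3 strains for Itgax (edgeR adjusted p = 0.00889) and Msr1 (edgeR adjusted p = 0.0022), in a comparison chosen with earlier results known.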

How the results depend on the processing

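No paired analysis was possible because mouse numbers follow accession order and pair no mice between groups. Of the 10 genes, the number called for the diet in NZO/HiLtJ fat was 7, with 4 to 10 on leaving out 1 mouse; in CAST/EiJ 0, with 1 under upper-quartile scaling, 3 with no scaling beyond the library total, 3 with DESeq2, and 0 to 3 without 1 mouse; in WSB/EiJ 3, with 1 in a fit to those 2 groups alone and 0 to 3 without 1 mouse. The interaction passed for 3 genes, for 7 with DESeq2, for 7 without the 6 libraries rich in Epcam (which leaves 3 strains), and for 0 to 6 without 1 mouse. The NZO/HiLtJ diet difference against the mean of the other strains passed for 2, for 7 with DESeq2 and for 1 to 6 without 1 mouse. On the high-fat diet, a fit to the 2 groups alone called 0 for CAST/EiJ against WSB/EiJ (3 in the full fit, 1 to 5 without 1 mouse), 0 for CAST/EiJ against C57BL/6J (7, and 4 to 8) and 0 for WSB/EiJ against C57BL/6J (3, and 0 to 5). On the standard diet, NZO/HiLtJ against C57BL/6J gave 3, with 6 by DESeq2, 7 in the fit to 2 groups, 7 without the 6 libraries and 3 to 7 without 1 mouse. CAST/EiJ against WSB/EiJ gave 2, with 4 without the 6 libraries and 1 to 3 without 1 mouse. CAST/EiJ against C57BL/6J gave 3, with 6 in the fit to 2 groups, 6 without the 6 libraries and 1 to 4 without 1 mouse. WSB/EiJ against C57BL/6J gave 2, with 5 in the fit to 2 groups, 7 without the 6 libraries and 0 to 4 without 1 mouse. Single genes turned direction in 3 diet comparisons: Spp1 in CAST/EiJ (5.95) was -1.95 without the 6 libraries and -1.95 to 7.80 without 1 mouse, Trem2 in CAST/EiJ (-0.35) was 0.20 without the 6 libraries and -1.33 to 0.19 without 1 mouse, and Gpnmb in WSB/EiJ (2.08) was -0.37 to 2.60 without 1 mouse. The causes were not tested. Over all genes, the NZO/HiLtJ diet calls numbered 979, with 1610 by DESeq2, 5967 in the fit to 2 groups, 4112 without the 6 libraries and 272 to 2375 without 1 mouse. With no scaling beyond the library total, the median log2 fold change of all genes was 0.216 in CAST/EiJ and 0.386 in WSB/EiJ, and the share of calls that were higher was 82.5% in CAST/EiJ and 91.1% in WSB/EiJ, where TMM gave 67.2% and 59.9%. The count of genes set apart from the pan-macrophage markers in NZO/HiLtJ fat was 10 in each alternative tried for it. Of all counts of the 10 genes, these included, 565 stayed within 1.5 times the reported value and 53 did not. Where a mouse is left out, its group keeps 2 mice.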
